A study of Mus musculus with 1037 samples.

Results

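The BCL2 family genes described here are Bcl2, Bcl2l1, Mcl1, Bax, Bak1, Bad, Bid, Bbc3, Pmaip1 and Bcl2l11. They were taken as the rows of the count table whose Ensembl identifier carries one of these symbols in the mouse annotation, and all 10 were found, among 55335 gene rows in all. RNA was read by Smart-seq2, a plate method that sequences full-length cDNA of single sorted cells, in hair follicle epithelium of wild type mice (CD1 on the study's sort scheme). Cells of 3 to 6 mice were pooled at each hair cycle stage before sorting, with no mouse named, so each group counts as 1 sample and differences between groups carry no test. Intervals below are 95% exact counting intervals, which leave out any spread between mice and, for CPM and ratios, between cells.

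Every cell came from the CD34+ Itga6+ outer root sheath (ORS) gate after removal of Sca1+ cells and of cells positive for CD31, CD117, CD140a or CD45. At AnaVI, the end of the growth phase (postnatal day 15), LOS cells were labelled lower ORS and MOS and UOS cells upper-middle ORS. At CatVI (day 17), a stage of regression, sorts named Phago or NonPhago and alive or apop lay on separate plates whose titles begin P17f. At CatVII (day 18), later in regression, the sorts were OSalive and OSapop. CatVI and CatVII cells were labelled upper ORS, and annexin V and DAPI were the stains that separated alive from apoptotic or dying cells. Only cells with at least 2000 detected genes were used: 39 of 93 LOS cells, 38 of 72 MOS, 83.6% of UOS (22 cells left out), 80.1% of OSalive (31 left out) and 65.2% of OSapop (92 kept, 49 left out). On the P17f plates they were 19 of 88 on plate 1 (pl1, Phago alive), 9 of 73 on pl2 (Phago alive), 15 of 85 on pl5 (Phago apop) and 14 of 69 on pl6 (NonPhago apop). None of the 67 cells of pl3 or the 57 cells of pl4, the NonPhago alive plates, passed, and no count of any of the 10 genes was found on either plate.

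BCL2 family proteins set whether the outer mitochondrial membrane stays intact. Survival members (Bcl2, Bcl2l1, Mcl1) hold the pore-forming members (Bax, Bak1) in check, and BH3-only members (Bad, Bid, Bbc3, Pmaip1, Bcl2l11) block the survival members or activate the pore formers. Once pores form, cytochrome c leaves the mitochondrion and caspases are activated. Much of this control acts on the proteins themselves, by cleavage, phosphorylation, turnover and binding, which RNA counts do not show. In the hair follicle, regression of the lower follicle in catagen proceeds through apoptosis of epithelial cells.

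What the members share is the BH3 core, a leucine, 3 further residues, a small residue and an aspartate. It was searched in the protein translated from each gene's main transcript (GENCODE M39, GRCm39) as a leucine, 2 free residues, a hydrophobic residue (isoleucine, methionine, valine, alanine or leucine), a glycine, serine or alanine, and an aspartate. All 10 members hold at least 1 match. So do 13.3% of 21770 protein-coding genes searched the same way, so the match is a description only. The coding strand of 9 members is shown to let the cores be compared. Each line gives 30 coding bases, 5′ to 3′, with the 6 codons of the core in capitals.
Bcl2: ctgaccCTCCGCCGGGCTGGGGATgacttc
Bcl2l1: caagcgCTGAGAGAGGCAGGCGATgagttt
Mcl1: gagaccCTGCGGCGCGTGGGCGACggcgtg
Bax: gagtgtCTCCGGCGAATTGGAGATgaactg
Bak1: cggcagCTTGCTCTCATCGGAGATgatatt
Bad: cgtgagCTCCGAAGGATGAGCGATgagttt
Bid: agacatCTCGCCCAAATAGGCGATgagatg
Bbc3: gcccagCTGCGGCGGATGGCGGACgacctc
Bcl2l11: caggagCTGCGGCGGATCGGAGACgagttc

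In GRCm39 these stretches lie within single coding exons: of Bcl2 at chr1:106640308-106640337 (minus strand), Bcl2l1 at chr2:152671620-152671649 (minus), Mcl1 at chr3:95566741-95566770 (plus), Bax at chr7:45115424-45115453 (minus) and Bak1 at chr17:27241508-27241537 (minus). Those of the BH3-only members lie at chr19:6928154-6928183 (Bad, plus), chr6:120874253-120874282 (Bid, minus), chr7:16047692-16047721 (Bbc3, plus) and chr2:127989064-127989093 (Bcl2l11, plus). The cores of Bbc3 and Bcl2l11 were the most alike, with 15 of 18 bases identical.

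Levels are given as CPM, the counts of a gene summed over a group's cells per 1000000 counts in annotated genes. Summed annotated counts ran from 441410 (pl6) to 55537430 (OSalive), with UOS (17125620) and OSapop (15483893) next below OSalive and the P17f plates the shallowest. The median passing cell held 415779 annotated counts in OSalive and 91167 in OSapop, against 108328 in UOS. Mitochondrial genes took 32.8% of annotated counts on pl2 and 21.8% on pl6, and 8.55% to 15.99% in the other groups. The epithelial markers Krt5, Krt14, Itga6, Itgb4 and Trp63 were all detected in every group. LOS and pl2 also held melanocyte markers (5 genes, summed at 615 and 592 CPM, against 0 to 48.6 elsewhere), and LOS held fibroblast markers (5 genes, 5559 CPM, against 15.9 to 1409 elsewhere). The 2 endothelial markers summed to 205.8 CPM in LOS and 161.2 CPM on pl1, and to at most 27.2 CPM elsewhere. The part of these cells in the members' levels was not tested.

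Per kilobase of transcript, Mcl1 was the most abundant survival member in all 9 groups and Bax the more abundant pore former in all 9. Mcl1 lay between 23.1 CPM per kilobase (LOS) and 51.03 (MOS). The survival members together took from 31.9% (pl2) to 61.3% (pl5) of the members' summed CPM per kilobase. The pore-forming share was 24.9% in LOS, 18.5% in MOS and 22.2% in UOS, but 6.70% in OSalive and 14.4% in OSapop. Among BH3-only members the leading gene differed by stage. It was Bad in the 3 AnaVI groups and Bid in both CatVII groups. On the P17f plates it was Bcl2l11, except pl2, where it was Bad. The main transcripts of Bax (0.976 kb) and Bad (1.19 kb) are the shortest of the 10. Protein-coding genes under 1 kb had a median log2 ratio of -1.37 for OSalive over UOS, and those of 1 to 2 kb -0.46. What part length had in these shares was not tested.

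**Figure D1:**
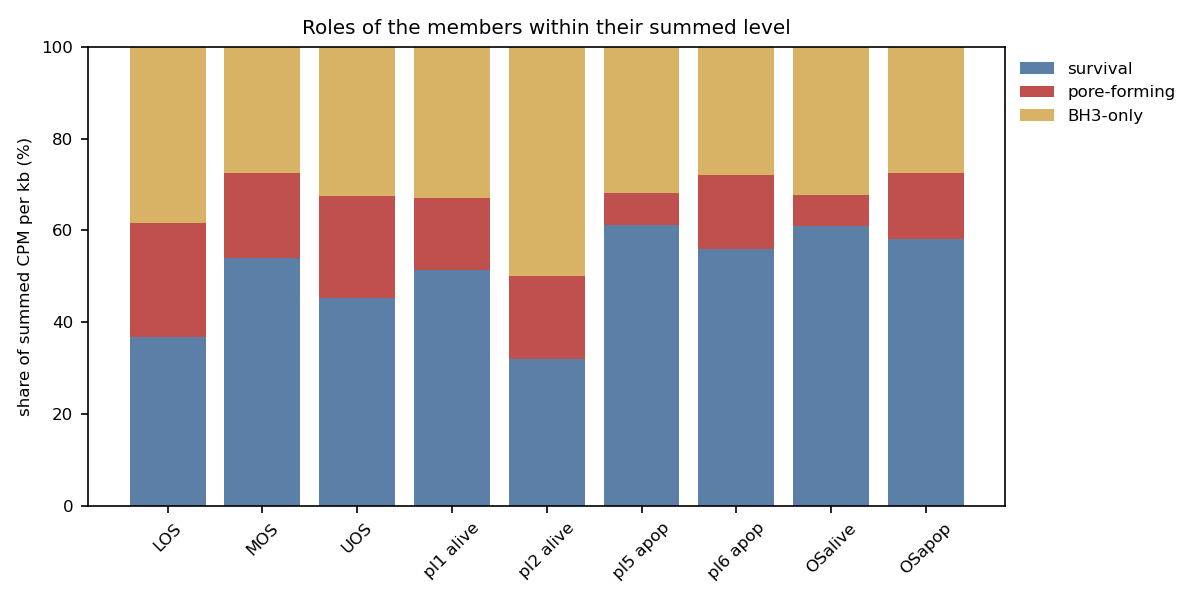
Share of the 10 members' summed CPM per kilobase (y axis, %) held by the survival, pore-forming and BH3-only members in each of the 9 groups (x axis). The pore-forming share is lowest in OSalive (6.70%) and pl5 (6.88%).

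No single cell showed the whole family. The median passing cell had counts of 2 to 4 of the 10 members in the 9 groups, and the most seen in 1 cell was 9, in UOS. With each cell thinned to 10000 annotated counts so that depth was equal, which left out 1 OSalive and 6 OSapop cells that were shallower, a survival member was found in 64.5% (55.4 to 72.9%) of OSalive cells and 72.1% (61.4 to 81.2%) of OSapop cells. A BH3-only member was found in 41.1% (32.4 to 50.3%) of OSalive and 37.2% (27.02 to 48.3%) of OSapop cells. Both pairs of intervals overlap. A pore former was found in 7.26% (3.37 to 13.3%) of OSalive, 13.95% (7.42 to 23.1%) of OSapop and 19.6% (12.7 to 28.2%) of UOS cells, so the intervals of OSapop overlap those of both other groups, while OSalive and UOS overlap only between 12.7% and 13.3%.

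Of the survival members, Mcl1, a short-lived protein needed by many cell types, was the most evenly expressed. Its level was 80.7 CPM in LOS, 178.1 in MOS, 100.6 in UOS, 112.5 on pl1, 118.4 on pl2, 105.7 on pl5, 88.4 on pl6, 100.9 in OSalive and 123.4 in OSapop. MOS stood above all other groups, and the remaining neighbours in this order had overlapping intervals. In single OSalive cells Mcl1 ran from 0 through a median of 65.4 to 421 CPM, and in OSapop cells from 0 through 71.2 to 425 CPM. Bcl2l1, which encodes BCL-XL, lay between 29.5 CPM (pl6) and 77.6 CPM (MOS), and 1 cell held 51.7% of its MOS counts. Its neighbours in the order overlapped except OSapop (64.1 CPM) above OSalive (58.1 CPM). Bcl2 itself spread most widely, from 1.76 CPM on pl5, 8.88 in LOS and 10.7 on pl1 to 50.3 in OSapop, 56.6 on pl6 and 56.7 in MOS. Counts were few on the plates: 2 on pl5 and 25 on pl6, of which 1 cell held 68%.

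The pore formers had their highest levels in different groups. Bax was 24.4 CPM in LOS, 26.7 in MOS and 17.4 in UOS, 15.0 on pl1, 26.1 on pl2, 4.41 on pl5 and 9.06 on pl6, and 3.44 in OSalive and 8.20 in OSapop. Thus both CatVII sorts lay below all 3 AnaVI groups, with no overlap of their intervals. Bak1 had its highest level in OSapop at 16.5 CPM (14.6 to 18.7), above UOS at 8.12 CPM (6.82 to 9.58), the next group in the order. It was 5.18 CPM in LOS, 2.14 in MOS and 4.88 in OSalive, while the 4 plates held between 0 and 5 counts each.

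Among BH3-only members, Bad, whose protein is held inactive by survival-factor signalling, was 44.4 CPM in LOS, 31.6 in MOS and 22.6 in UOS but 5.04 in OSalive and 10.5 in OSapop. Bid, which caspase-8 cleaves to link death receptors to mitochondria, was lower at AnaVI than at CatVII: 0.370 CPM in LOS (1 count), 8.56 in MOS and 5.55 in UOS against 28.2 in OSalive and 32.2 in OSapop. Plate 2 reached 27.7 CPM of Bid, from 2 cells, and pl5 had none. Bcl2l11, encoding BIM, was 95.3 CPM on pl1, 87.2 on pl5, 63.04 on pl2, 52.4 in MOS and 52.1 on pl6, neighbours with overlapping intervals. Below them lay OSalive (31.96 CPM), OSapop (23.8), UOS (21.4) and LOS (11.1). In MOS 64.3% of the Bcl2l11 counts came from 1 cell, and on pl2 90.2%. Bbc3, encoding the p53 target PUMA, lay between 1.07 CPM (MOS) and 9.45 CPM (OSalive). Pmaip1, encoding NOXA, another p53 target, was under 11 CPM except on pl2, where all 32 counts (49.2 CPM) lay in 1 of 9 cells.

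**Figure D2:**
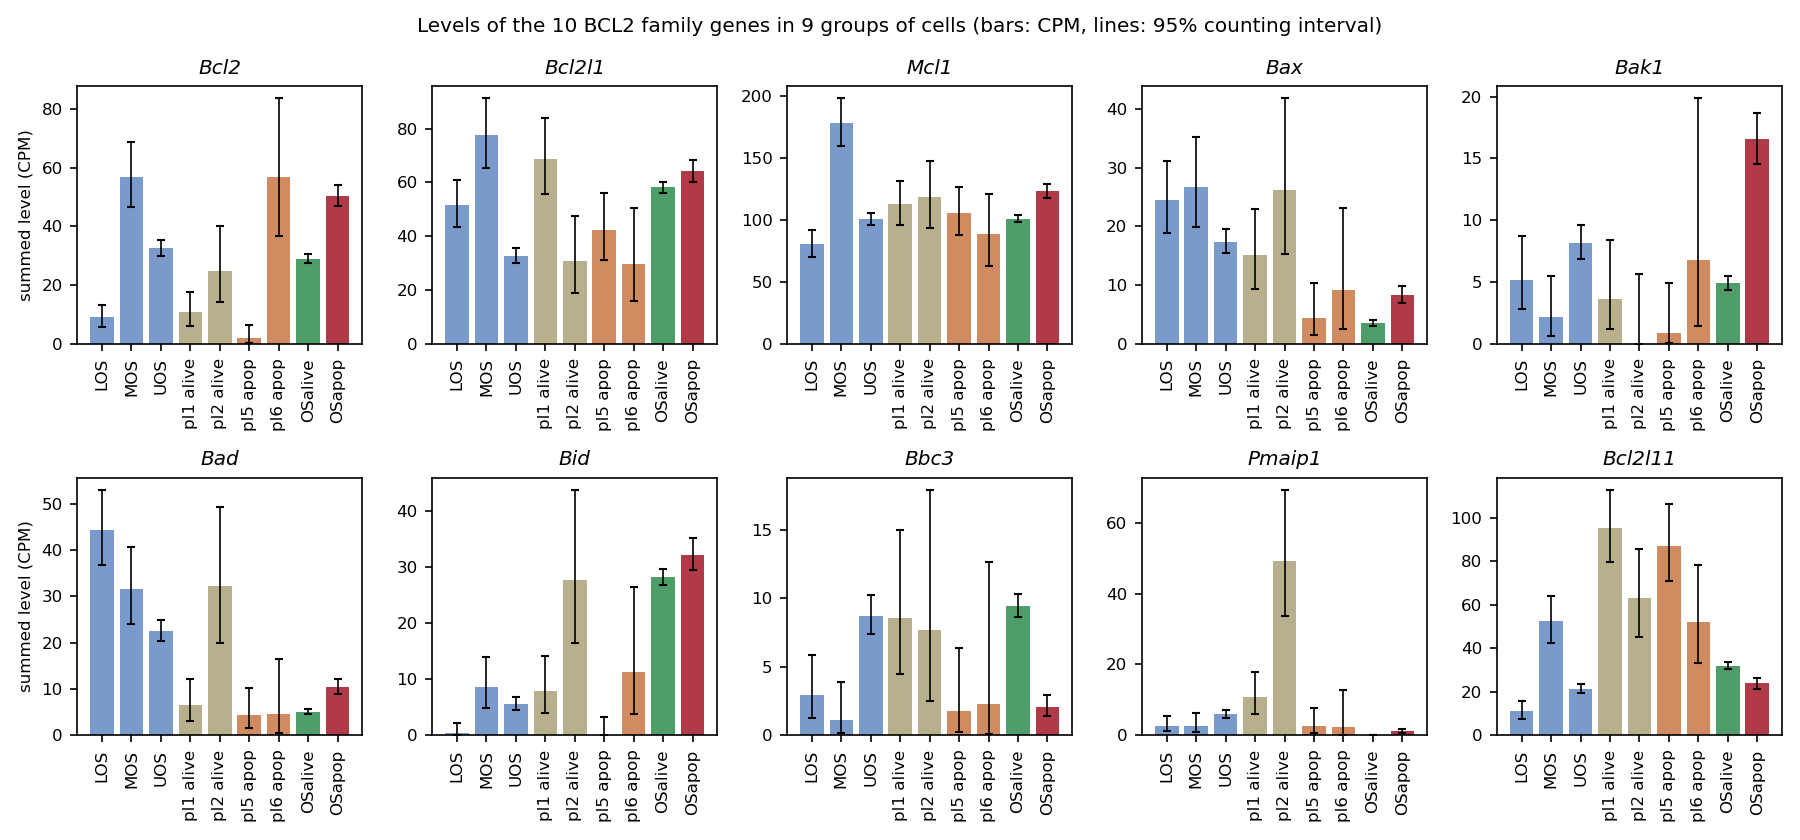
Summed level (y axis, CPM) of each member in the 9 groups (x axis); bars are CPM and lines the 95% Poisson interval of the count. Bid is high in OSalive and OSapop (28.2 and 32.2 CPM), while Bax and Bad are low there relative to LOS, MOS and UOS.

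The comparison of OSapop with OSalive asks how the family's RNA differs between cells sorted as dying and as alive at 1 stage. Of the 9 members with at least 100 counts over both sorts, 3 were at least 2-fold higher in OSapop (Bax, Bak1 and Bad) and 1 was at least 2-fold lower (Bbc3). Of all 13806 genes compared, 8.6% were at least 2-fold higher and 13% at least 2-fold lower. The members' median log2 ratio was 0.29, beside -0.01 over all genes. Neither sort has a replicate, and OSalive cells were deeper, so what follows describes these pools of cells.

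Bak1 differed most among the 3, with 16.5 CPM in OSapop and 4.88 CPM in OSalive, a log2 ratio of 1.76 (1.51 to 2.01). It was found in 18 OSapop cells (19.6%) and 16 OSalive cells (12.8%), and in OSapop the highest cell held 30.1% of its counts. At equal depth Bak1 was found in 8.14% (3.34 to 16.1%) of OSapop and 4.03% (1.32 to 9.16%) of OSalive cells, intervals that overlap. Without the highest cell of each sort the log2 ratio was 1.79, and as a mean over cells, each weighted alike, it was 1.05 (8.74 CPM with SD 24.5 against 4.21 with SD 14.7). Bax was 8.20 against 3.44 CPM, a log2 ratio of 1.25 (0.92 to 1.59). Its share of positive cells was 17.4% in OSapop and 18.4% in OSalive, and at equal depth 5.81% (1.91 to 13.05%) and 3.23% (0.886 to 8.05%), intervals that overlap. Bad was 10.5 against 5.04 CPM, a log2 ratio of 1.05 (0.77 to 1.34), and at equal depth it was found in 8.14% (3.34 to 16.1%) of OSapop and 3.23% (0.886 to 8.05%) of OSalive cells. Bax and Bad stood near the 2-fold line: without the highest cell of each sort both came to 0.97, and the mean over cells gave 0.26 for Bad.

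Bbc3 went the other way, with 2.07 CPM from 32 counts in OSapop and 9.45 CPM from 525 counts in OSalive, a log2 ratio of -2.19 (-2.76 to -1.68). The counts came from few cells. They were found in 10 OSapop cells (10.9%) and 17 OSalive cells (13.6%), and the mean over cells was 7.11 CPM (SD 30.5) against 8.96 (SD 29.4), a log2 ratio of -0.33. Pmaip1 had 18 counts in OSapop, 88.9% of them in 1 of its 3 positive cells, and none in OSalive, so its ratio has only a lower limit, a log2 value of 3.98 by the exact interval. With OSalive set to 3 counts the ratio was 21.5-fold, and both values rest mostly on 1 cell.

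Differences were smaller for the other members. Bcl2 was 50.3 against 28.9 CPM, a log2 ratio of 0.80 (0.67 to 0.92), but the mean over cells gave 40.9 against 38.1 CPM. Mcl1 had a log2 ratio of 0.29 (0.22 to 0.37). At equal depth Mcl1 was found in 54.7% (43.5 to 65.4%) of OSapop cells and 40.3% (31.6 to 49.5%) of OSalive cells, intervals that overlap. Bcl2l1 (0.14), Bid (0.19) and Bcl2l11 (-0.43) lay within 2-fold. Directions among these members depended on the cells used. With only the 22 OSapop and 12 OSalive cells whose well label is unique in their sort, the log2 ratios were -0.13 for Bcl2, -0.31 for Mcl1, -0.57 for Bcl2l1 and -1.27 for Bid, the 4 members that then had enough counts. The mean over cells gave Bid -0.45. Markers of other cells also differed between the sorts. Of interfollicular differentiation, 3 markers summed to 5.75 CPM in OSapop and 26.95 in OSalive, with Krt1 at 0.646 and 16.2 CPM, and 3 proliferation markers to 313.2 and 215.6 CPM. The 6 leukocyte markers summed to 27.8 CPM in OSapop and 21.8 in OSalive, with Itgax at 0 in both. Cd74 was higher in OSapop (log2 ratio 2.74), as was Cd3e (61 counts against 0). Cd68 (-2.88), Lyz2 (-1.95) and Ptprc (-1.39) were lower. In the same order, the 2 endothelial markers summed to 2.97 and 3.30, the 5 melanocyte markers to 5.88 and 4.48 with Kit and Mlana at 0 in both, the 5 fibroblast markers to 879 and 973, and the 5 epithelial markers to 14498 and 14361. Their part in the members' ratios was not tested.

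**Figure D3:**
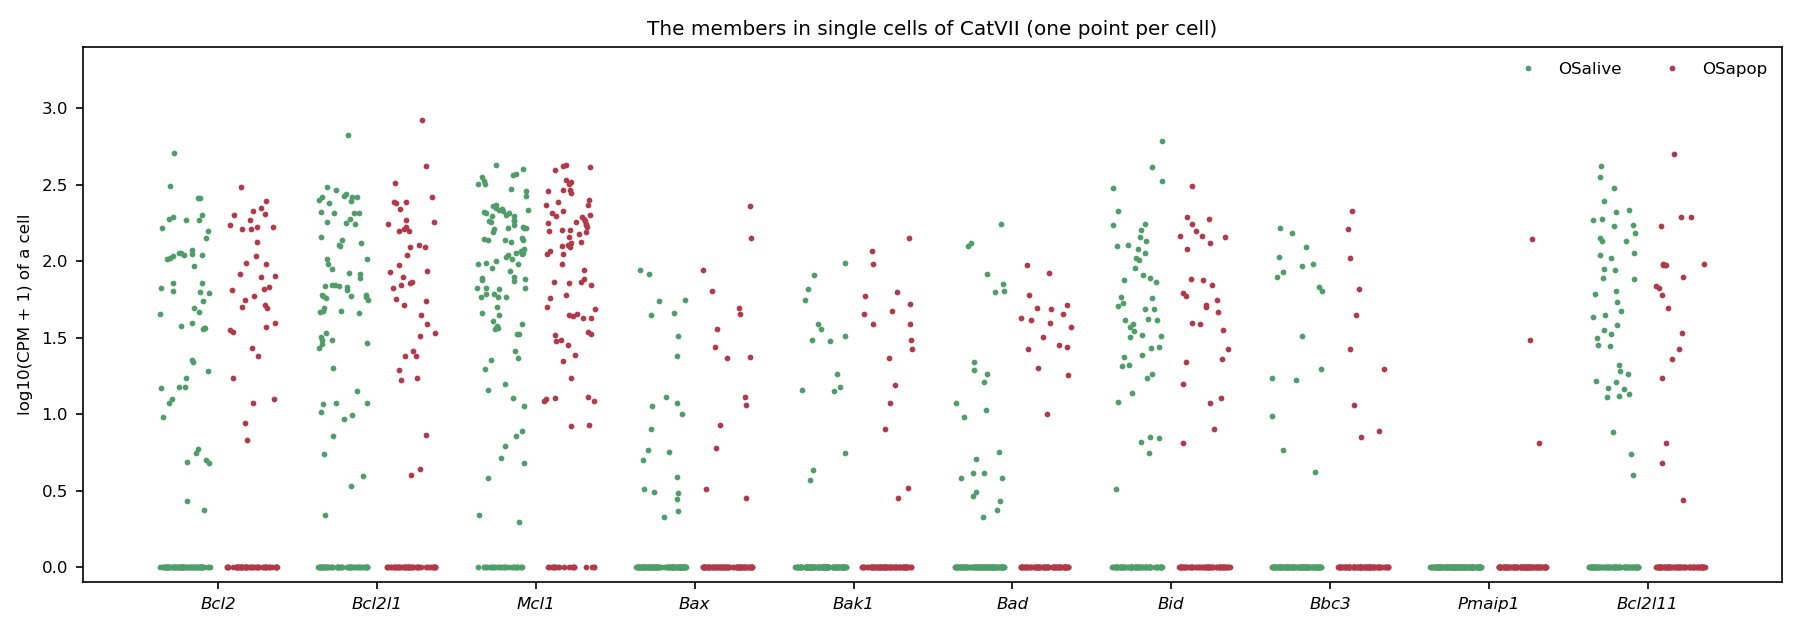
Level of each member in each CatVII cell (y axis, log10 of CPM plus 1; 1 point per cell) for OSalive and OSapop. Most cells sit at 0 for Bax, Bak1, Bad and Bbc3, and their sums rest on 10 to 25 positive cells a sort.

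At CatVI, pl5 (Phago apop) was compared with the sum of pl1 and pl2 (Phago alive). Only Bcl2l1, Mcl1 and Bcl2l11 reached 100 counts, and 0 of these 3 were 2-fold apart, against 11.9% of 5232 genes higher and 20.6% lower in pl5. Their log2 ratios were -0.42 (-0.94 to 0.07), -0.11 (-0.44 to 0.21) and 0.04 (-0.33 to 0.40). The members with fewer counts all had lower CPM in pl5. Of 10650 genes with at least 20 counts, 29.2% were at least 2-fold lower in pl5 and 16.5% higher, with a median log2 ratio of -0.22. With no minimum, 20.7% of 20626 genes were lower and 31.5% higher. The share of such genes lower by any amount was not computed. Bax had 5 counts in pl5 against 38, Bad 5 against 30, Bcl2 2 against 31, Bbc3 2 against 17, Pmaip1 3 against 47 and Bak1 1 against 5. Bid had 0 against 29, a log2 ratio of at most -2.03 by the exact interval, and 5.36-fold lower with pl5 set to 3 counts. The log2 ratio of Bax was -2.08 (-3.78 to -0.73), on the other side of 0 from CatVII, but the 2 stages were not tested against each other. Plates 1 and 2 also differed: Bad was 6.45 CPM on pl1 and 32.3 on pl2, Bid 7.88 and 27.7. These values rest on few cells. On pl2 1 cell held 76.2% of the 21 Bad counts and 1 cell 83.3% of the 18 Bid counts, and pl1 had 9 Bad counts. The Pmaip1 counts lay in 1 cell on pl1 and 1 cell on pl2. Beside these values, the 5 melanocyte markers summed to 193.5 CPM on pl1 and pl2 and 5.29 on pl5, and the 2 endothelial markers to 109.95 and 0 CPM. The 5 epithelial markers summed to 8090 and 23102 CPM in the same order. Of these Krt14 (log2 ratio 2.16), Krt5 (1.23) and Trp63 (0.53) were higher in pl5, while Itga6 (-1.53) and Itgb4 (-0.40) were lower. Sort and plate cannot be told apart here, and the part of other cells was not tested.

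**Figure D4:**
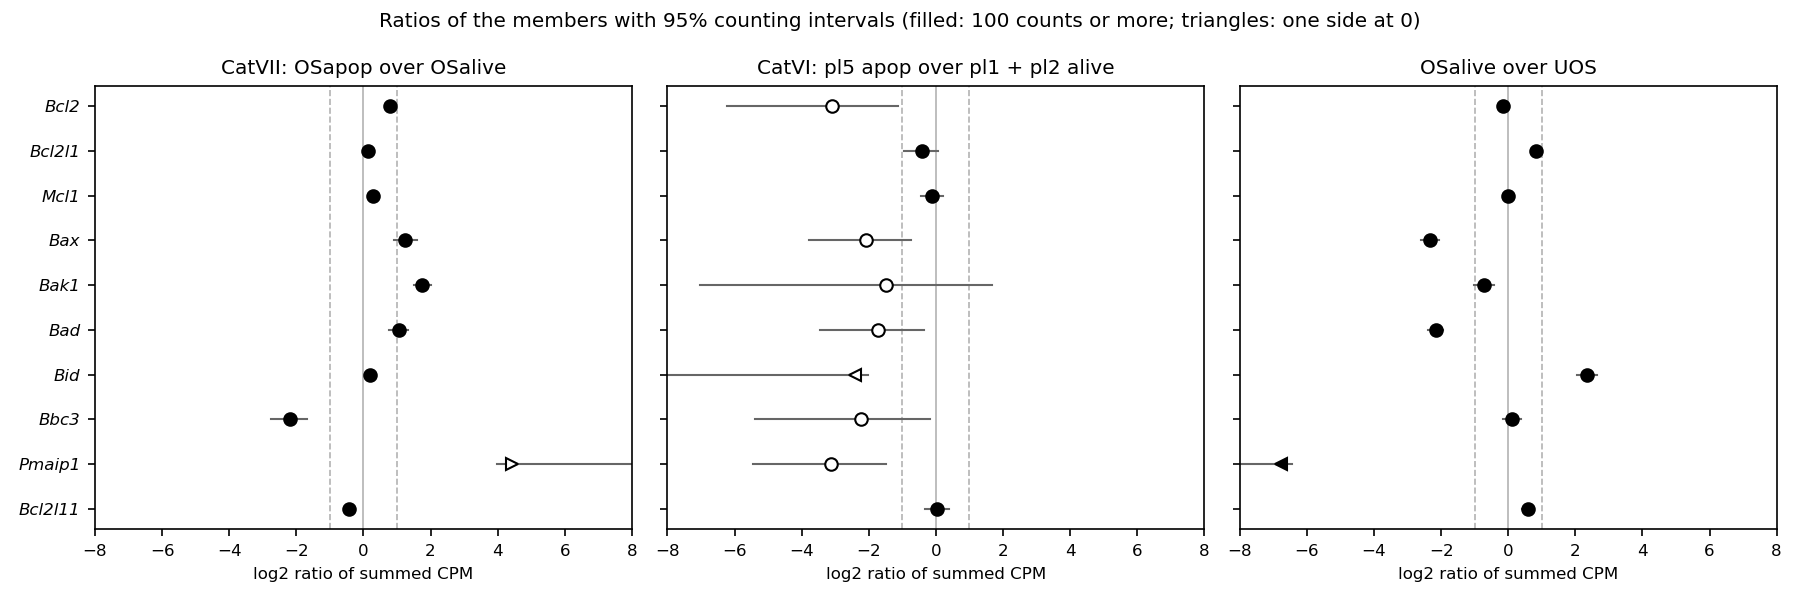
Log2 ratio of summed CPM (x axis) of each member for OSapop over OSalive, pl5 over pl1 and pl2, and OSalive over UOS, with 95% counting intervals; dashed lines mark 2-fold, open symbols fewer than 100 counts, triangles a side at 0 set to 3 counts, and lines that reach the frame go on beyond it. Bax lies right of 0 in CatVII and left of 0 in the other panels.

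The levels above set the CatVII cells apart from AnaVI, so OSalive was also compared with UOS, the largest AnaVI group. This comparison was added after the levels were seen, shares OSalive with the CatVII comparison, and differs in stage, labelled region and sort day at once, which cannot be told apart. All 10 members had at least 100 counts. Bax, Bad and Pmaip1 were at least 2-fold lower in OSalive and Bid at least 2-fold higher, against 18.7% of 14078 genes lower and 16.8% higher. Scaled by all gene rows, 26.6% were lower and 11.5% higher. The members' median log2 ratio was -0.08, beside 0.05 over all genes.

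Bax had a log2 ratio of -2.34 (-2.61 to -2.07) and Bad of -2.16 (-2.39 to -1.94). At equal depth Bax was found in 3.23% (0.886 to 8.05%) of OSalive and 15.2% (9.10 to 23.2%) of UOS cells, and Bad in 3.23% (0.886 to 8.05%) and 16.1% (9.81 to 24.2%), intervals that do not overlap. Bid, in contrast, had a log2 ratio of 2.34 (2.04 to 2.66) and at equal depth was found in 20.2% (13.5 to 28.3%) of OSalive and 6.25% (2.55 to 12.5%) of UOS cells. In OSapop Bid was found in 17.4% (10.1 to 27.1%) of cells, which overlaps both. Pmaip1 was 5.96 CPM in UOS, from 11 cells, and had 0 counts in OSalive. Its log2 ratio was at most -6.46 by the exact interval, and with OSalive set to 3 counts the level was 110.3-fold lower. At equal depth Pmaip1 was found in 2.68% (0.556 to 7.63%) of UOS and 0% (0 to 2.93%) of OSalive cells, intervals that overlap. In UOS 1 cell held 27.5% of its counts. Bcl2l1 was 1.77-fold higher in OSalive (log2 0.83, 0.70 to 0.96), Bcl2l11 had a log2 ratio of 0.58 and Bak1 of -0.73, and Mcl1 stood at 0.00 (-0.07 to 0.08). Scaled by all gene rows, Mcl1 came to -0.37, Bcl2l11 to 0.21 and Bak1 to -1.11, which made 4 members 2-fold lower. With cells of unique well labels only, Bcl2l11 was -2.60 and Bbc3 -1.68 (0.12 over all cells), and Bax, Bad and Bid kept their direction (-4.59, -4.32 and 3.75).

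**Figure D5:**
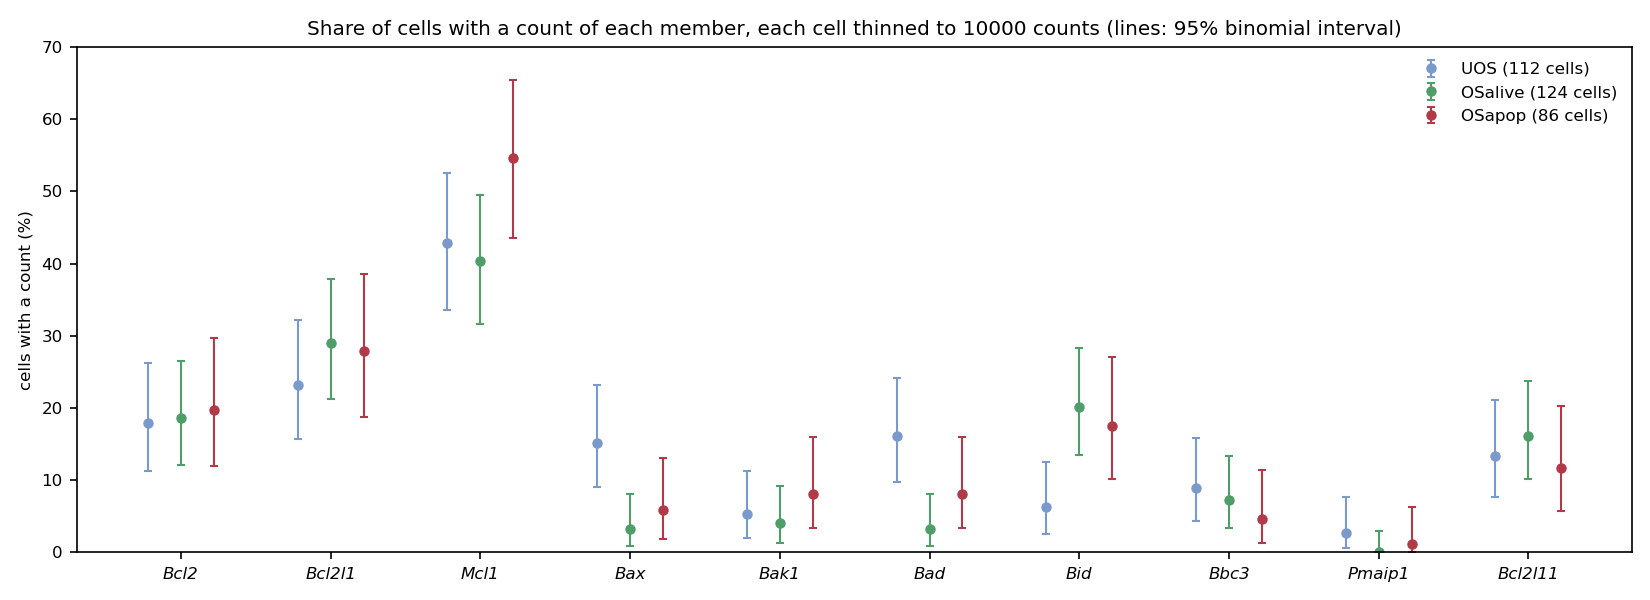
Share of cells with a count of each member (y axis, %) after every cell was thinned to 10000 annotated counts, in UOS, OSalive and OSapop; lines are 95% exact binomial intervals. UOS lies above OSalive for Bax (15.2 and 3.23%) and Bad (16.1 and 3.23%) and below it for Bid (6.25 and 20.2%).

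Transcript length moved with this comparison. Protein-coding genes under 1 kb had a median log2 ratio of -1.37 and 57.9% of them were at least 2-fold lower in OSalive, those of 1 to 2 kb a median of -0.46 with 34.5% lower, and those of 4 kb or more a median of 0.17 with 11.1% lower. The main transcripts of Bax and Bad are 0.976 and 1.19 kb long, so both belong to classes that were low as a whole. Bid (2.20 kb) and Pmaip1 (2.73 kb) belong to the class of 2 to 4 kb, in which 15.5% of genes were 2-fold higher and 16.5% lower. In the CatVII comparison the same classes had medians between -0.22 and 0.02. UOS also held 5 markers of inner root sheath and hair shaft at 3252 CPM in sum, against 12.98 in OSalive. What part length or these cells had in the members' ratios was not tested.

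The wider pathway was counted in the same way between OSapop and OSalive. Of 15 other BCL2 family genes 7 had enough counts, and 1 was 2-fold lower and none higher, where 13% of all genes were lower and 8.6% higher. The gene was Bcl2l2, which encodes the survival protein BCL-W, at 12.4 CPM in OSapop and 31.2 CPM in OSalive, a log2 ratio of -1.33 (-1.55 to -1.11). Of 13 genes for cytochrome c and the caspase steps 12 had enough counts, and none was 2-fold apart, with a median of 0.29. The most abundant were Vdac1 (226.8 against 175.5 CPM), a channel of the outer mitochondrial membrane, and Xiap (90.2 against 86.5 CPM), an inhibitor of caspases. Of 16 regulators of the family, 1 of which (Trp63) is also an epithelial marker, 15 had a row of their own and enough counts. Only E2f1, a cell cycle transcription factor, was 2-fold higher, at 18.5 against 8.50 CPM, a log2 ratio between 0.90 and 1.33 by its interval, from 13 and 15 positive cells, with 37.8% of the OSapop counts in 1 cell. Trp53, the activator of Bbc3 and Pmaip1, was 194.7 against 148.6 CPM, a log2 ratio of 0.39.

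Between OSalive and UOS, 6 of the 12 cytochrome c and caspase genes with enough counts were 2-fold lower in OSalive. Of all genes 18.7% were (26.6% scaled by all gene rows). By transcript length, 34.5% to 57.9% of protein-coding genes under 2 kb were lower, and 11.1% to 16.5% of longer ones. The lengths of the 12 genes are not given here. The median log2 ratio of the 12 was -0.92, and the part of transcript length in it was not tested. Cycs, cytochrome c itself, was 5.37 against 45.6 CPM. Of the 15 regulators, 2 were higher and 1 lower, where 16.8% of all genes were higher (11.5% scaled by all gene rows). Of the 7 other family genes 1, Bcl2l2, was higher (31.2 against 15.1 CPM), beside the same share of all genes. Cycs and Trp53 were chosen for mention after their values were seen.

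Mcl1 had the highest median level of the members over the 9 groups, 105.7 CPM. Of 13287 genes, those whose log2(CPM + 1) followed it most closely over these 9 points were Prkx (r = 0.94), Zxdb (r = 0.93) and Hps5 (r = 0.90). Each had its highest summed level in MOS and its lowest in LOS, as Mcl1 had, and 1 cell held 32.7% of the Mcl1 counts in MOS. The 9 points share stages and differ in depth, so r is given as a description only.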

How the data were processed

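The deposited table holds estimated counts per gene and cell, which the authors made with STAR 2.6 and Salmon 1.4.0 on mm39, summed to genes. Replicate cells were not pooled in that table, which has 1 column per cell. It holds 1036 cells, and 463 in assigned groups were used. Values were rounded and scaled by the counts of the 51654 identifiers (93.3%) found in GENCODE M39, since identifiers outside it took 79.2% of counts (1 alone 65.5%). The 92 spike-in rows were kept apart.

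Counts were summed over a group's cells. CPM has exact Poisson, shares have Clopper-Pearson and ratios have exact binomial 95% intervals, which cover counting error only, since Smart-seq2 reads carry no molecular identifiers. A side at 0 was set to 3 counts. Genes needed 100 counts over both sides to be counted at 2-fold. TMM factors came from edgeR 4.0.16, other steps from Python 3.11.15 and scipy 1.17.1, and the ratio step was tested on simulated data. No p-value was computed.

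The members and lists were chosen with earlier results of these data known. Named besides the members are, per pathway list, genes past 2-fold at CatVII (up to 4) or else the 2 most abundant, and the 3 genes closest to the most abundant member. Trp53 and Cycs were added after their values were seen. Ddit3 and Lor matched no single row. One cell whose title and stage label disagree was left out, and 1 pl6 cell was not analysed here.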

Additional observations from a re-analysis of the deposited data

How the results depend on the processing

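No paired analysis was possible because the result comes from no test and each group is 1 pool. Scaling by all gene rows shifted the median of all genes at CatVII from -0.01 to 0.12, and for OSalive over UOS from 0.05 to -0.33. With it the members' median log2 ratio at CatVII was 0.42, and for OSalive over UOS -0.46. With the mean over cells the CatVII median was 0.10 and 0 members were lower, where 10.8% of all genes were. In that setting 2 members were higher in OSalive than UOS, where 16.4% of all genes were. Thinning left 2 members with enough counts, none 2-fold apart in either comparison (0 higher, 0 lower), with medians of -0.0033 at CatVII and 0.38 for OSalive over UOS, and it left none at CatVI, so no value there. Without cells whose well label is held by 2 cells of their sort (320 cells with 160 labels), 22 OSapop and 12 OSalive cells remained. Then 4 members had enough counts, 0 higher and 1 lower (Bid), where 18.5% of all genes were higher and 20.7% lower. Bcl2, Mcl1 and Bcl2l1 changed sign, and the CatVII median was -0.44. The median of OSalive over UOS was -0.87, with Bcl2l11 changed in sign (-2.60). With no minimum of counts the CatVII median was 0.54. At CatVI 7 of 10 members were then lower with a median of -1.91, where 20.7% of 20626 genes were lower. A minimum of 20 counts made 5 of 8 members lower at CatVI, also with a median of -1.91, where 29.2% of 10650 genes were lower. Without pl1 the CatVI median was 0.15 and without pl2 -0.13, with 0 members 2-fold apart in both. Leaving out each gene's highest cell, chosen after seeing the data, left 1 member higher at CatVII and 1 lower at CatVI. Of all genes, 5.24% were then higher at CatVII and 18.7% lower at CatVI. The median for OSalive over UOS was 0.040. Over the settings that gave them a value, Bax (0.97 to 1.39) and Bad (0.26 to 1.19) crossed the 2-fold line at CatVII. Bak1 (1.05 to 1.89) did not, and Bbc3 ran from -2.43 to -0.33. After thinning, and with unique well labels only, Bax, Bad, Bak1 and Bbc3 had too few counts for a value. The cause was not tested beyond the counts given. Of the values of single members, 46 moved outside their counting interval and the rest stayed within it, none with a change of sign from a 2-fold value.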

Other observations

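One cell titled OSapop carried the CatVI stage label and was put in no group. Of the 10 members it had counts of Bad only, 2 of its 10456 annotated counts.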
